A study of Mus musculus with 6 samples.

Results

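The genes that make, use and recycle glutathione and thioredoxin were followed in mouse glial cells with and without the H3.3K27M mutation. Members were all genes whose symbol belongs to the glutathione S-transferase (Gst and Mgst), glutathione peroxidase (Gpx), peroxiredoxin (Prdx), thioredoxin (Txn), glutaredoxin (Glrx) or superoxide dismutase (Sod) families, together with Prxl2b, Gclc, Gclm, Gsr, Gss, Cat, Nqo1, Hmox1, Srxn1, Nfe2l2 and Keap1. The rule found 66 symbols, of which 63 had a probe among the 22911 genes named on the array. Gsta1 and the pseudogenes Gstp-ps and Gstm2-ps1 had none. WT cells were OS3 glial cells, an SV40-immortalized line from the brain of newborn C3H/HeN mice (labelled C3H), that carried the empty vector (labelled OS3-vector), and IG27 cells were OS3 cells transfected with the plasmid pcDNA3.1(+)-H3f3a-K27M (labelled OS3-H3F3A_K27M). Both were cultured for 2 days before RNA extraction, and each group had 3 samples, each on 1 single-color Agilent array of 1 slide. According to the methods, clones were established by drug selection, and which clone each array holds is not given in the sources used here. The effect of the mutant histone therefore cannot be told apart from that of the selection of clones, and the p-values measure only the spread between these samples.

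Glutathione is a tripeptide whose thiol group cells use to reduce peroxides and to tag reactive compounds for export. Glutathione peroxidases spend it on peroxides, glutathione S-transferases attach it to electrophiles, and glutathione reductase regenerates it with NADPH. Thioredoxins and peroxiredoxins form a parallel route with their own NADPH-dependent reductases. Much of the system is under the transcription factor Nrf2 (Nfe2l2), which the adaptor Keap1 hands over for degradation until oxidants modify it. Glial cells, astrocytes above all, are known as the main glutathione stores of the brain.

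Values were log2 intensities minus the 75th percentile of their array, so that 0 marks the level of the probe at that percentile, and a difference of 1 is 2-fold. Values of different genes come from different probes and are not comparable with each other. Between 58.8% and 61.2% of probes were well above background on the 5 arrays with complete scanner output, and arrays correlated at 0.994 to 0.997 within and 0.902 to 0.905 between groups (Pearson's r across genes, which are not independent replicates). Of the glial markers, 6 of 8 for astrocytes and at least 7 of 8 for the oligodendrocyte lineage were above background in each group, although the astrocyte gap junction gene Gja1 was so in neither and the glutamate transporter Slc1a3 was at background in WT. Markers of other cell types were also present, 4 of 7 microglial ones in WT and 5 in IG27 cells, and 3 of 6 fibroblast and mesenchymal ones in WT and 4 in IG27 cells. The microglial genes Cx3cr1 and Ptprc, the neuronal genes Rbfox3, Syt1, Gad1 and Slc17a6 and the endothelial genes Cdh5, Cldn5 and Tek were not above background in either group. Linear levels were also summed over each marker list, and such a sum is led by its brightest probes. For the 8 astrocyte markers it was 98.3 to 108 in WT and 57.6 to 66.0 in IG27 cells. Gfap, the brightest, fell by 1.07 on the log2 scale, while S100b rose by 4.93. Of 7 tested astrocyte markers 2 were higher and 3 lower. The sum of the 8 oligodendrocyte markers was 73.8 to 75.9 and 74.8 to 77.4, and that of the 5 neural progenitor markers 195 to 203 and 158 to 176. That of the 6 fibroblast and mesenchymal markers was 150 to 154 and 134 to 142, and that of the 7 microglial markers 14.6 to 15.6 and 13.9 to 14.4. That of the 8 neuronal markers, of which 2 were above background in WT and 4 in IG27 cells, was 17.5 to 19.9 and 9.99 to 11.1. That of the 5 endothelial markers, of which 1 and 2 were above background, was 0.172 to 0.194 and 2.60 to 2.67. Each of these lists held called genes of both directions, so a sum does not describe its whole list. The endothelial Kdr was at least 135-fold higher in IG27 cells from background in WT, while Pecam1 fell by 0.27 on the log2 scale. The neuronal Tubb3 fell by 2.63, while Map2 rose by 8.03 from near background. The progenitor genes Sox2 and Nes fell by 0.80 and 0.49, while Fabp7 was at least 110-fold higher from background. The part of these markers in the results was not tested.

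Nrf2 with a small Maf partner binds the antioxidant response element, whose core is written TGACNNNGC. Its first letters overlap with those of the AP-1 motif. The promoters of 6 members are shown because these genes carry the results below: the factor itself, the regulatory subunit of glutathione synthesis, a peroxiredoxin and 3 members that rose. Each is the 250 bases before the transcription start in RefSeq on GRCm38.p6, written 5′ to 3′, with matches of the core on either strand in capitals.
Nfe2l2, chr2:75704664-75704913, minus strand: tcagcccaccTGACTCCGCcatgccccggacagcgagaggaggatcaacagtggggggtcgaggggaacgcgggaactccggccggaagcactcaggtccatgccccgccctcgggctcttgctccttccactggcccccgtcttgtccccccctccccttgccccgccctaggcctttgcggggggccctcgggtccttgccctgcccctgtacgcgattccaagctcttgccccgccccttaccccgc
Gclm, chr3:122245307-122245556, plus strand: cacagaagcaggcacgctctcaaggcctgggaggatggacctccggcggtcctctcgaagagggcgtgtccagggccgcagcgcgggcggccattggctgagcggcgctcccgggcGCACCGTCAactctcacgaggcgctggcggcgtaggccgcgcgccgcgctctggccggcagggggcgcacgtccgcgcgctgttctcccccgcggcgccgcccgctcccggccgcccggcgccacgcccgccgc
Prdx1, chr4:116685349-116685598, plus strand: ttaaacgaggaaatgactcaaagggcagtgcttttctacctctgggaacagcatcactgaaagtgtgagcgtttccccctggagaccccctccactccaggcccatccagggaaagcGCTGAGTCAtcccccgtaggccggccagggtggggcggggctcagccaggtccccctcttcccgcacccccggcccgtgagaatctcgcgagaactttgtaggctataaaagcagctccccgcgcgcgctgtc
Prxl2b, chr4:154899044-154899293, minus strand: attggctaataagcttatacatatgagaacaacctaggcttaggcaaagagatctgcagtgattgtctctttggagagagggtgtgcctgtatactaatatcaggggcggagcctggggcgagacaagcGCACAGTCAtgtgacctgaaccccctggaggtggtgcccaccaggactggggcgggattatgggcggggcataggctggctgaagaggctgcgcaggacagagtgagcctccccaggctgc
Gstk1, chr6:42245685-42245934, plus strand: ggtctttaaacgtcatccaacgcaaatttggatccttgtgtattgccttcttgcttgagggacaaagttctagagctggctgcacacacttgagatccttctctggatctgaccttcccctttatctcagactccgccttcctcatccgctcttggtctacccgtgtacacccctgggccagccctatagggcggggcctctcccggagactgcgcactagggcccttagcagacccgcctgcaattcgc
Gsto1, chr19:47854723-47854972, plus strand: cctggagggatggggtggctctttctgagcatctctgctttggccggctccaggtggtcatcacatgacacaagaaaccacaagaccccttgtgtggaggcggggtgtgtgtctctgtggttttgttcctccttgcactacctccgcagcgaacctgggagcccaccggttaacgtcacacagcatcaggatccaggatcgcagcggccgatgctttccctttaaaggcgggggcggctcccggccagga
The core was found in Nfe2l2 240 bases before the start, in Gclm 134, in Prdx1 133 and in Prxl2b 121 bases before it, and in neither Gstk1 nor Gsto1. Of the 55 members with such a sequence 10 (18.2%) held a match, against 11.5% of 27025 genes, and counted per promoter the shares were 13.7% and 10.2%. The other members with a match were Gsta3, Gstm5, Gstm7, Mgst1, Sod1 and Txnrd1. In IG27 cells 4 of the 10 rose, 4 fell and 2 were not called, so a match went with no single direction. Prxl2b, among the 4 that rose, was put on the list by name with earlier results known. A match describes letters and is not a binding site.

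Of the 63 members, 53 were above background in at least 1 group and were tested, and 42 of these (79.2%) were called different at an adjusted p below 0.05 (limma, Benjamini-Hochberg over all 14898 genes tested). The difference between the lines was broad, with 70.5% of all genes tested called, 30.5% higher and 40% lower. The members divided almost evenly, 20 higher and 22 lower, and their median log2 fold change was -0.04 against -0.07 for all genes. Differences of at least 2-fold were called in 18 of 53 members, 9 in each direction, against 23.1% of all genes (11.5% higher and 11.7% lower). The 9 higher include Prxl2b, which was put on the list by name with earlier results of these data known. The slide held WT replicates 1 and 3 in 1 row and all other arrays in the other, and a fit blocked on that row, in effect WT replicate 2 against IG27, called 36 members (18 in each direction) and 8946 genes. The 3 arrays of a group did not overlap with those of the other in 45 members, against 75.7% of all genes. Genes were not all equally placed: 9 tested members lie on chromosomes 8, 9 and X, where the medians of all genes were -0.67, -0.64 and -0.59, and of these 1 was higher and 6 were lower, while the other 44 had 19 higher and 16 lower. Whether a chromosome-wide shift had a part in these members was not tested.

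**Figure D1:**
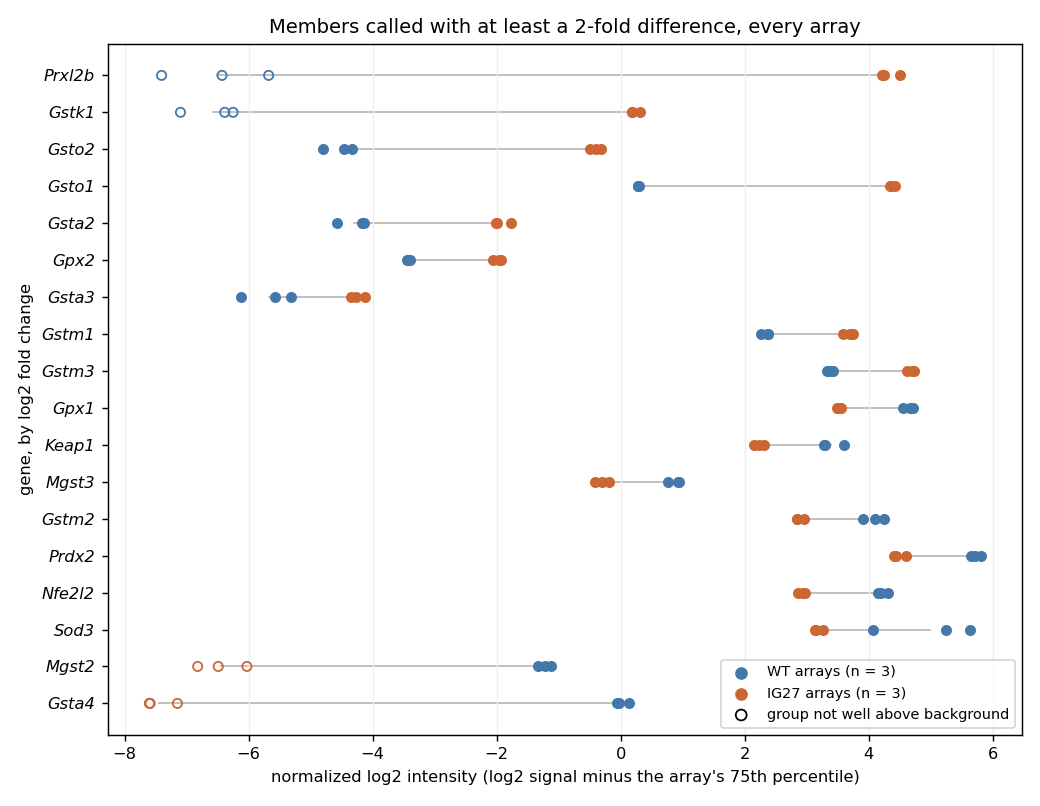
Normalized log2 intensity on each of the 3 WT and 3 IG27 arrays for the 18 members called with at least a 2-fold difference, ordered by log2 fold change; grey lines join the group means and open circles mark a group that was not well above background. Prxl2b and Gstk1 are at background in WT, and Gsta4 and Mgst2 are at background in IG27 cells. The arrays of the groups do not overlap in any of the 18 genes, which were chosen for their difference in these same data.

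The glutathione S-transferases held the widest spread. All 19 tested of 24 were called, 11 higher and 8 lower, against 70.5% of all genes tested. By at least 2-fold 11 of them were called, against 23.1% of all genes. The calls of Gstz1, Gstm6 and Gstp2 were lost in 9, 3 and 1 of the alternative settings. Among the other members apart from Prxl2b 22 of 33 were called, 6 by at least 2-fold. This contrast between families was not tested.

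Among the transferases named for the omega class, Gsto1 and Gsto2, which also reduce dehydroascorbate and arsenic compounds, rose together by their brightest probes. Gsto1 was at 0.28, 0.27 and 0.29 on the WT arrays and at 4.42, 4.35 and 4.35 on the IG27 arrays. It was thus 17.0-fold higher in IG27 cells, with arrays of each group almost on top of each other (log2 fold change 4.09 ± 0.05 SE, adjusted p = 7.43e-08). A second Gsto1 probe gave 4.10. Gsto2 was at -4.33, -4.80 and -4.46 in WT and at -0.32, -0.40 and -0.49 in IG27 cells, a rise of 17.5-fold (4.13 ± 0.13, adjusted p = 1.12e-06), or 3.00 on the log2 scale with normexp background correction. A second Gsto2 probe was at background in both groups, so the rise of Gsto2 rests on its brightest probe alone. Gsto1 and Gsto2 lie side by side on chromosome 19. The next tested genes on either side, Cfap43 and Itprip, had log2 fold changes of 0.19 (adjusted p = 0.416) and 0.28 (adjusted p = 0.00545).

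Gstk1, the kappa transferase of mitochondria and peroxisomes, was above background in IG27 cells and not in WT cells. Its probe was not well above background on any WT array, at -6.25, -7.10 and -6.39, and read 0.31, 0.18 and 0.18 in IG27 cells. A group at background gives only a bound, taken on the processed signal from the lowest value well above background on each array. By it Gstk1 was at least 63.7-fold higher in IG27 cells. Such a gene was tested only through the group where it is high, and its fit used background values of the other group. No p-value is therefore given for Gstk1, Gsta4, Mgst2 and Prxl2b, although the counts of called members include them. Such bounds hold for the processed signal alone: with normexp background correction, which adds an offset, the log2 fold change of Gstk1 was 4.08, under its bound. The gene next but one on chromosome 6, the kinase-dead Ephrin receptor Ephb6, fell by 5.04 on the log2 scale, while Casp2 on the other side had a log2 fold change of -0.24.

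The alpha class, which handles products of lipid peroxidation, split. Gsta4, the enzyme for 4-hydroxynonenal, read -0.03, -0.06 and 0.12 on the WT arrays but -7.60, -7.15 and -7.59 on the IG27 arrays, where neither array with detection flags had it above background. It was at least 41.1-fold lower in IG27 cells, and with normexp its log2 fold change was -4.13, smaller than that bound. Gsta2 moved the other way, from -4.58, -4.14 and -4.18 in WT to -1.78, -1.99 and -2.02 in IG27 cells, 5.17-fold higher (2.37 ± 0.14, adjusted p = 1.48e-05; 1.60 with normexp). Gsta2 and Gsta4 are neighbors on chromosome 9, with a single tested gene between them, Gm10639, which rose by 2.23 on the log2 scale, so the sign turned within a run of adjacent genes. Gsta3 was dim, at -5.58, -6.12 and -5.31 in WT, where 1 of 3 arrays was well above background, and at -4.35, -4.27 and -4.13 in IG27 cells (1.42 ± 0.21, adjusted p = 0.00103). That rise was 0.83 without WT replicate 3 and 0.24 with normexp. Gsta2 shares most of its sequence with Gsta1, which has no probe of its own, and its signal may hold both.

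**Figure D2:**
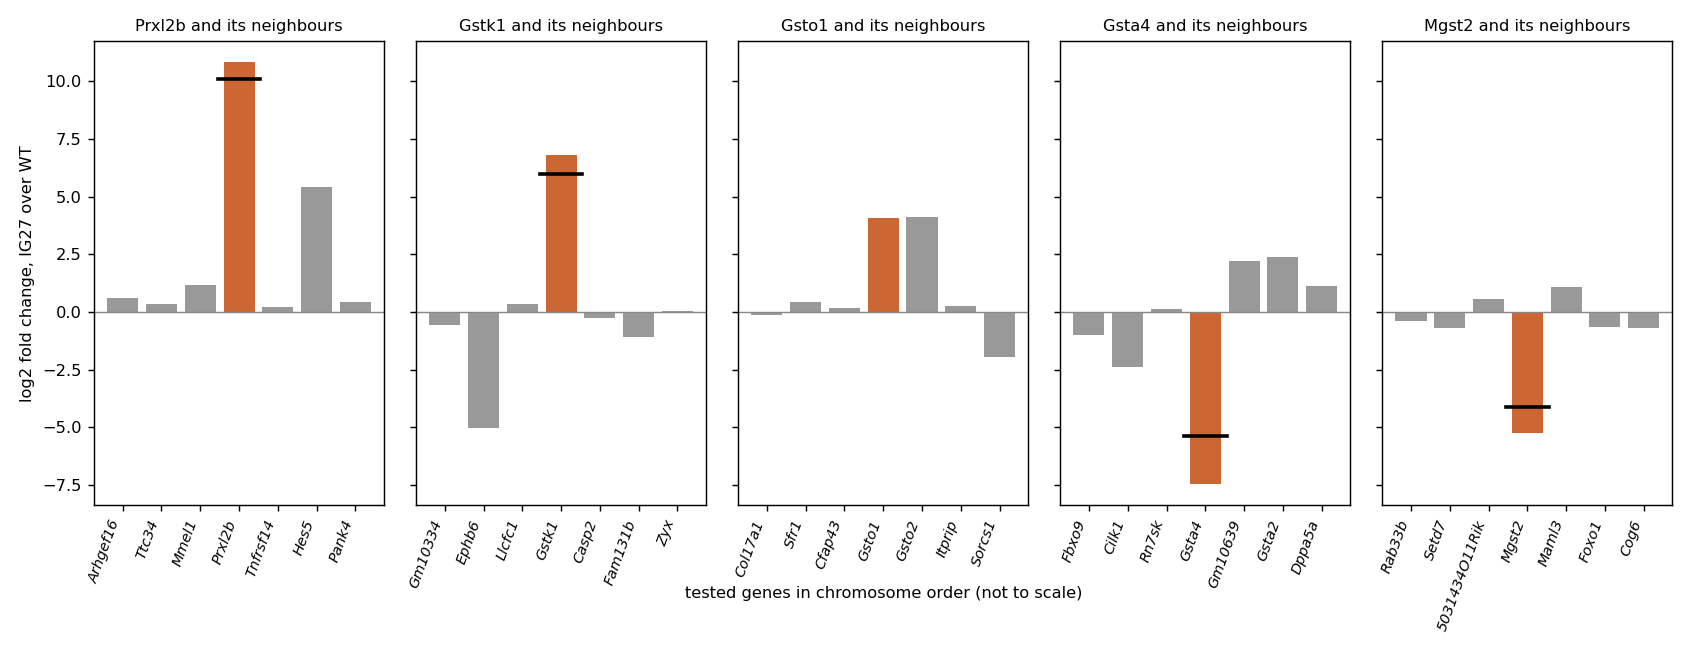
Log2 fold change of IG27 over WT for Prxl2b, Gstk1, Gsto1, Gsta4 and Mgst2 (orange) and the 3 nearest tested genes on each side (grey), in chromosome order; black marks give the bound for genes at background in 1 group. By their brightest probes Gsto1 and Gsto2 rise as a pair, Hes5 rises near Prxl2b, and Gsta4 falls beside Gm10639 and Gsta2, which rise.

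The mu class forms a cluster on chromosome 3, and by their brightest probes its 7 genes moved in both directions, 4 higher and 3 lower, Gstm6 among the latter. In chromosome order, the log2 fold changes were -0.61 for Gstm5, 0.64 for Gstm7, -0.21 for Gstm6, 1.31 for Gstm3, -1.20 for Gstm2, 1.34 for Gstm1 and 0.73 for Gstm4. Gstm1 was at 2.37, 2.25 and 2.37 in WT and rose to 3.75, 3.70 and 3.58 in IG27 cells (2.54-fold, SE 0.07 on the log2 scale, adjusted p = 7.86e-06). Gstm3 read 3.42, 3.33 and 3.37 in WT and 4.73, 4.70 and 4.61 in IG27 cells, a 2.47-fold rise (SE 0.05, adjusted p = 3.65e-06). Between them on the chromosome, Gstm2 fell from 3.90, 4.24 and 4.10 to 2.96, 2.84 and 2.83, 2.30-fold lower (SE 0.10, adjusted p = 6.97e-05). The mu genes are close paralogs and their probes may share signal. The 2 probes of Gstm6 were called in opposite directions, at -0.21 and 0.63, so its direction, and with it the count of 3, rests on the choice of probe.

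The remaining cytosolic classes moved little. The pi genes Gstp1 and Gstp2, near-identical paralogs, rose by 0.36 and 0.23 on the log2 scale, and Gstz1, the zeta enzyme of tyrosine breakdown, fell by 0.25. A second Gstz1 probe, at -0.03, was not called. Of the theta class, Gstt2 and Gstt4 were above background nowhere, and Gstt1 and Gstt3 on 1 WT array each, so none was tested.

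The microsomal transferases all fell. Mgst2, which can also make leukotriene C4, was at -1.12, -1.33 and -1.23 in WT and at background in IG27 cells, at -6.49, -6.03 and -6.82. It was at least 17.4-fold lower in IG27 cells, and with normexp its log2 fold change was -2.49, smaller than that bound. Mgst3 fell from 0.92, 0.76 and 0.94 to -0.18, -0.42 and -0.30, 2.25-fold lower (SE 0.08, adjusted p = 3.90e-05). Mgst1 ran from -3.38 to -3.29 in WT and from -4.15 to -4.02 in IG27 cells, and fell by 0.77 on the log2 scale. In each of the 3 genes all IG27 arrays lay below all WT arrays. Of all genes tested, 75.7% did not overlap between the groups and 40% were called lower.

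Prxl2b, a thioredoxin-fold protein that serves as a prostamide and prostaglandin F synthase, was at background in WT. It was put on the list by name, with earlier results of these data known, so its values are a description. The WT arrays read -7.40, -5.68 and -6.43, all at background, and the IG27 arrays 4.51, 4.24 and 4.21. IG27 cells thus had at least a 1088-fold higher processed signal, and the log2 fold change was 7.99 with normexp, under that bound, and 10.0 blocked on the slide row. Hes5, a Notch target and the second tested gene beyond Prxl2b on chromosome 4, rose by 5.40 on the log2 scale, with 1 of 3 WT arrays above background, whereas Tnfrsf14 between them was at 0.21 (adjusted p = 0.134) and Mmel1 on the other side rose by 1.17.

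Glutathione synthesis and recycling changed less. Gclm, the regulatory subunit of glutamate-cysteine ligase, fell from 3.57, 3.54 and 3.53 in WT to 3.04, 3.10 and 3.15 in IG27 cells (-0.45 ± 0.05, adjusted p = 0.000291). Its catalytic partner Gclc, the rate-limiting enzyme, read 2.30, 2.22 and 2.15 in WT and 2.03, 2.14 and 2.02 in IG27 cells. It was not called (-0.16 ± 0.06, adjusted p = 0.0556), although 6 of the alternatives called it lower. These are not all separate fits: leaving out IG27 replicate 2 repeats the fit on the complete arrays, and another is the main fit at the methods' unadjusted threshold. Gss, which adds the final glycine, was at 2.54, 2.53 and 2.53 against 2.60, 2.40 and 2.46, with overlapping arrays (-0.05 ± 0.06, adjusted p = 0.514). Gsr, glutathione reductase, fell from 3.24, 3.08 and 3.29 to 2.64, 2.56 and 2.64 (-0.59 ± 0.07, adjusted p = 0.000345). Gsr lies on chromosome 8, where all genes had a median of -0.67, and its own log2 fold change was close to that median. No gene of this group was higher, against 30.5% of all genes tested.

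**Figure D3:**
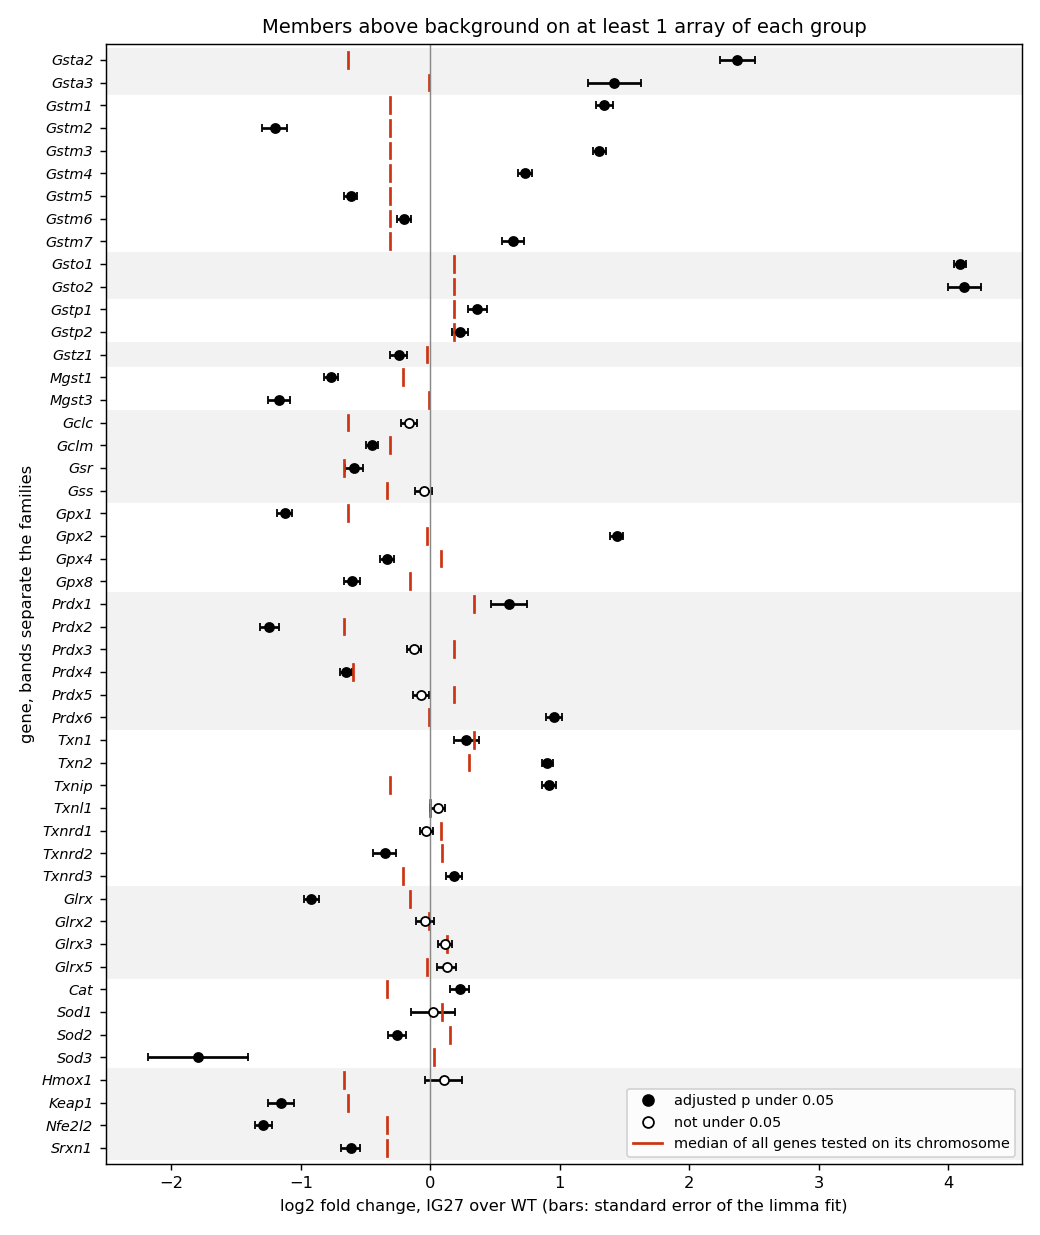
Log2 fold change of IG27 over WT, with the standard error of the limma fit, for the 49 tested members that were above background on at least 1 array of each group, by family in alternating bands; open circles were not called and red ticks give the median of all genes on the same chromosome. The transferases reach from -1.20 for Gstm2 to 4.13 for Gsto2, while the genes of glutathione synthesis, thioredoxin and glutaredoxin lie within 1 log2 unit of 0.

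Of the 8 glutathione peroxidases, Gpx3, Gpx5, Gpx6 and Gpx7 were at background on every array and 4 were tested. Gpx1, the abundant cytosolic selenoenzyme, read 4.67, 4.55 and 4.70 in WT and 3.55, 3.50 and 3.48 in IG27 cells, 2.18-fold lower (-1.13 ± 0.06, adjusted p = 1.01e-05). Gpx2, better known from gut epithelium, was dim but separate, at -3.43, -3.45 and -3.39 in WT and -2.06, -1.97 and -1.93 in IG27 cells (2.71-fold higher, SE 0.05, adjusted p = 2.36e-06). Gpx4, which reduces lipid peroxides in membranes and holds back ferroptosis, fell slightly, from 6.46, 6.41 and 6.45 to 6.13, 6.03 and 6.17 (-0.33 ± 0.05, adjusted p = 0.00182). Gpx8 of the endoplasmic reticulum fell by 0.60. Of the 4 peroxidases tested 3 were lower, against 40% of all genes tested, and Gpx1 lies on chromosome 9 with its median of -0.64.

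The peroxiredoxins went in both directions within their family. Prdx2, a cytosolic member abundant in neurons and red cells, fell from 5.65, 5.71 and 5.81 in WT to 4.60, 4.40 and 4.43 in IG27 cells, 2.37-fold (-1.24 ± 0.07, adjusted p = 1.82e-05). Prdx2 lies on chromosome 8, where all genes had a median of -0.67. Prdx4 of the endoplasmic reticulum went from 5.68, 5.63 and 5.62 to 5.03, 5.00 and 4.94 (-0.65 ± 0.05, adjusted p = 5.07e-05), close to the median of -0.59 of its chromosome, X. Prdx6, which reduces phospholipid peroxides with the help of glutathione, rose from 4.89, 4.76 and 4.82 to 5.81, 5.71 and 5.82 (0.96 ± 0.06, adjusted p = 1.93e-05). Prdx1, the cytosolic partner of Prdx2, read 6.73, 6.28 and 6.79 in WT, with replicate 2 lowest, and 7.27, 7.15 and 7.21 in IG27 cells (0.61 ± 0.14, adjusted p = 0.00824). Blocked on the slide row, which compares WT replicate 2 with the IG27 arrays beside it, the rise was 0.93. The mitochondrial members were not called. Prdx3 was at 3.21, 3.26 and 3.32 against 3.20, 3.12 and 3.09 (-0.13 ± 0.06, adjusted p = 0.0825), and Prdx5 at 5.36, 5.27 and 5.34 against 5.28, 5.15 and 5.31 (-0.08 ± 0.06, adjusted p = 0.312). Srxn1, the sulfiredoxin that repairs overoxidized peroxiredoxins, fell from 4.30, 4.18 and 4.37 to 3.71, 3.55 and 3.73 (-0.62 ± 0.08, adjusted p = 0.000490).

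In the thioredoxin system 4 of 7 genes were higher and 1 was lower, against 30.5% and 40% of all genes tested. Txn2, the mitochondrial thioredoxin, rose by 0.90 ± 0.04 on the log2 scale, from 4.71 to 4.77 in WT to 5.62 to 5.66 in IG27 cells. Txnip, which binds reduced thioredoxin and restrains glucose uptake, was at 2.84, 2.86 and 2.94 in WT and 3.76, 3.84 and 3.79 in IG27 cells (0.92 ± 0.05, adjusted p = 1.52e-05). The cytosolic Txn1 read 5.54, 5.61 and 5.72 against 6.06, 5.74 and 5.90, with the nearest arrays of the groups at 5.72 and 5.74, closer than the arrays within either group (0.28 ± 0.10, adjusted p = 0.0410). Its call was lost in 7 of the alternative settings, and all genes of its chromosome, 4, had a median of 0.33. Txnrd1, the selenoenzyme that reduces Txn1, did not separate, at 4.14, 4.15 and 4.08 in WT and 4.10, 4.12 and 4.05 in IG27 cells (-0.03 ± 0.05, adjusted p = 0.600). The mitochondrial reductase Txnrd2 fell by 0.35 and Txnrd3 rose by 0.18, calls lost in 2 and 8 of the alternative settings, and Txnl1 was not called. Of the glutaredoxins, which use glutathione to free protein thiols, Glrx fell by 0.92, and Glrx2, Glrx3 and Glrx5 ran from -0.04 to 0.13 by their brightest probes and were not called. A second Glrx2 probe was called lower (-0.63 ± 0.06, adjusted p = 0.00017), and a second Glrx3 probe was called higher (0.26 ± 0.08, adjusted p = 0.0281).

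The superoxide dismutases, which turn superoxide into hydrogen peroxide, did not move alike. Sod3, the secreted enzyme, was at 4.06, 5.63 and 5.24 on the WT arrays, with replicate 1 well below the others, and at 3.26, 3.15 and 3.13 in IG27 cells. All IG27 arrays were still below the lowest WT array, and the gene was 3.48-fold lower (-1.80 ± 0.39, adjusted p = 0.00619), with log2 fold changes of -2.25 without WT replicate 1, -1.47 without WT replicate 2 and -2.45 blocked on the slide row. Mitochondrial Sod2 was at 1.69, 1.80 and 1.92 in WT and 1.53, 1.57 and 1.52 in IG27 cells (-0.26 ± 0.07, adjusted p = 0.0154). Cytosolic Sod1 read 6.49, 7.02 and 7.13 against 6.99, 6.85 and 6.86, with WT replicate 1 again the lowest, and was not called (0.02 ± 0.17, adjusted p = 0.917). Cat, the peroxisomal catalase, rose from 0.68, 0.50 and 0.62 to 0.84, 0.73 and 0.91 (0.23 ± 0.07, adjusted p = 0.0310).

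The regulators of the system both fell. Nfe2l2, which encodes Nrf2, was at 4.19, 4.14 and 4.30 in WT and 2.93, 2.97 and 2.86 in IG27 cells, 2.44-fold lower (-1.29 ± 0.06, adjusted p = 7.17e-06). Keap1, its inhibitor, fell from 3.59, 3.29 and 3.28 to 2.31, 2.16 and 2.23, 2.23-fold (-1.16 ± 0.10, adjusted p = 9.26e-05), on chromosome 9 with its median of -0.64. In both genes the groups were clearly apart. Hmox1, heme oxygenase and a classical Nrf2 target, overlapped between groups, at 3.50, 3.39 and 3.47 in WT and 3.64, 3.79 and 3.24 in IG27 cells (0.10 ± 0.14, adjusted p = 0.544). IG27 replicate 3 was the low one, and without it Hmox1 was called higher (0.26, adjusted p = 0.0277). Nqo1, the quinone reductase often used as a readout of Nrf2, was at background on every array, between -8.20 and -7.58, and gave no comparison. These are RNA levels, and Nrf2 is mostly set by protein degradation, which the arrays do not measure.

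Related genes outside the members were grouped in 7 lists that were chosen with earlier results of these data known. Some genes, Slc7a11 among them, are in several lists, so the counts of the lists overlap and cannot be added. Their counts are to be read against all genes tested, of which 30.5% were higher and 40% lower, and no list was tested against them. Among 24 tested targets of Nrf2, 9 were higher and 7 lower in IG27 cells, with a median log2 fold change of -0.0031. The aldo-keto reductase Akr1c13 fell by 1.88, and the aldehyde oxidase Aox1 rose by 2.65. Pir, an iron-binding nuclear protein, was at background in WT and at least 4.35-fold higher in IG27 cells, and Slc7a11, the cystine importer that feeds glutathione synthesis, at least 3.22-fold higher from the same kind of background. Of 16 relatives and regulators of Nrf2, 10 were higher and 2 lower (median 0.33). Among the higher were the small Maf factor Maff (1.89 ± 0.06), the repressor Bach2 (1.39 ± 0.07), Sesn2 (0.78 ± 0.05) and the ubiquitin ligase subunit Rbx1 (0.61 ± 0.07). The 2 lower were the competing repressor Bach1 (-0.55 ± 0.16) and Sesn3 (-0.42 ± 0.05), both added after their values were seen.

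In glutathione turnover and cysteine supply 12 of 34 genes were higher and 11 lower (median -0.0005). Anpep, an aminopeptidase of the cell surface that can split cysteinylglycine, rose by 5.08 ± 0.06, and Cth, which makes cysteine from cystathionine, by 4.28 ± 0.08. Anpep was at -4.90, -4.78 and -4.91 in WT and at 0.17, 0.21 and 0.27 in IG27 cells, and Cth at -4.07, -3.97 and -3.92 against 0.41, 0.18 and 0.30, so both groups were far apart. Ggt6 was at background in WT and at least 1.73-fold higher in IG27 cells. Ggt7 fell by 2.31 and Ggct, which releases oxoproline from glutathione products, by 1.83; both were added after their values were seen, since their measured differences exceed that bound. Of 33 relatives of thioredoxin 18 were lower and 8 higher (median -0.38). Tmx2 fell by 2.02, Nxn by 1.29 and Tmx4 by 1.20, while Prxl2a, a relative of Prxl2b, rose by 1.56.

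Of 26 genes of selenium handling and methionine sulfoxide repair, 12 were higher and 9 lower (median 0.08). Selenop, the selenium carrier, was at background in WT and at least 28.7-fold higher in IG27 cells, Selenbp1 rose by 5.14 ± 0.13 and Dio2 by 1.22, and Secisbp2l fell by 1.39. Among 24 oxidases and NADPH suppliers 8 were higher and 13 lower (median -0.31). The D-aspartate oxidase Ddo rose by 3.75 ± 0.13, and Ncf4 (at least 2.97-fold) and Hao1 (at least 1.74-fold) rose from background in WT. The monoamine oxidase Maoa, which rose by 2.43, and Xdh, xanthine dehydrogenase, which fell by 1.89, were added after their values were seen. Among 27 genes of iron, metals and lipid peroxides 9 were higher and 11 lower (median -0.08). The paraoxonase Pon2 fell by 5.36 ± 0.10 and its neighbor in the family Pon3 to background, at least 6.28-fold lower, and the mitochondrial carriers Ucp2 and Ucp3 were at least 7.89-fold and 8.95-fold higher than a background level in WT.

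**Figure D4:**
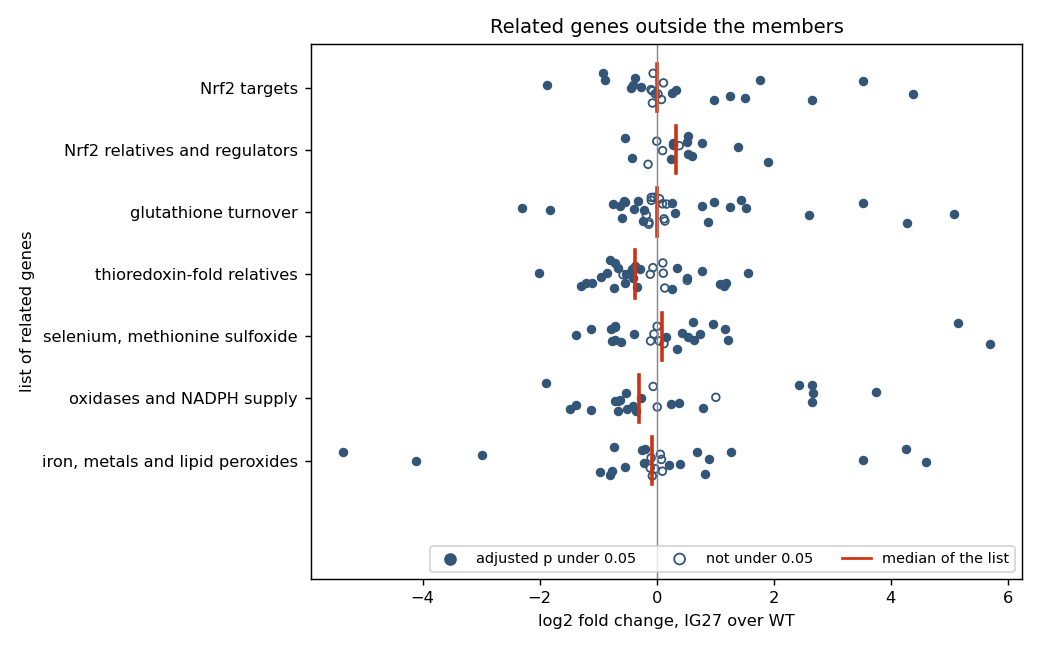
Log2 fold change of IG27 over WT for every tested gene of the 7 related lists, 1 point per gene (filled if called, open if not, vertical position within a row without meaning); red bars give the median of each list. Medians run from -0.38 for the thioredoxin-fold relatives to 0.33 for the Nrf2 relatives and regulators, and each list spans both directions.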

How the data were processed

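Single-color Agilent arrays of 3 WT and 3 IG27 samples were analysed. The authors scanned the slide and extracted spots with Feature Extraction (version 9.1 per the labels, 10.7.3.1 per the file headers). The deposited processed signal is an intensity on a linear scale after that software's own correction, whose steps the sources used here do not give. IG27 replicate 2 has 285 of 62976 spots and no flags, so its values came from the deposited value table. That table has WT replicates 2 and 3 exchanged relative to the scanner output, and the scanner labels were kept.

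Spots flagged as outliers were left out (107 to 210 per array), and the 75th percentile of each array's log2 values was subtracted from log2 of the deposited intensity. Probes were named by accession through a RefSeq table (32994 of 56605 probes), and the brightest probe stood for a gene. A gene was tested if well above background on all arrays with flags in at least 1 group, with limma 3.58.1 in R 4.3.3 (lmFit, eBayes, two-sided, no block). The fit was also run on simulated arrays with 200 changed genes. Far more genes differ here, so that run does not show how accurate the fit is on these data. Replicate numbers of the groups were checked and correlated by at most 0.08, so they were not used as pairs.

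The members and lists were chosen with earlier results of these data known. Values on every array are given for members called with at least a 2-fold difference and for a set of core genes fixed by name, and up to 4 called genes of largest difference for each list. The number of arrays limits the precision. Alternatives covered scaling, background, filters, probes, blocks, the methods' threshold and left-out arrays.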

Additional observations from a re-analysis of the deposited data

How the results depend on the processing

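The count of members called (42) ran from 36 to 43 over the alternatives, and from 38 to 40 (17 to 19 higher, 20 to 22 lower) when single arrays were left out. Over all genes it ran from 8946 to 10855 (the latter at the methods' threshold), from 9799 to 10162 with single arrays left out (4258 to 4372 higher, 5541 to 5806 lower), and over the related lists from 115 to 129 (121 to 127 with single arrays left out). Each of the lowest counts came with the slide row blocked. Of the 42 called members, 34 kept their call in every alternative that tested them. The calls lost were those of Gstz1 (9 alternatives), Txnrd3 (8), Txn1 (7), Cat (5), Gstm6 and Sod2 (3 each), Txnrd2 (2) and Gstp2 (1). The fit without IG27 replicate 2 is the same as that on the 5 complete arrays, so a change there counts as 2 alternatives. Under quantile normalization Gclm fell by 0.29 in place of 0.45, and with normexp (5 arrays) Mgst1 fell by 0.44, Gsta4 by 4.13 and Mgst2 by 2.49, and Gstk1 rose by 4.08. Members not called were called in some alternatives: Gclc in 6 (lower, -0.22 to -0.16), Glrx3 in 2 (0.19 and 0.21), and once each Glrx2 (-0.34, probes averaged), Glrx5 (0.24, quantile), Txnl1 (0.18, quantile) and Hmox1. Directions that turned belonged to members not called, apart from Gstm6. Under quantile normalization Glrx2 was at 0.039, Gss at 0.084, Prdx3 at 0.031, Prdx5 at 0.035 and Txnrd1 at 0.12. With probes averaged per gene Gstm6 was at 0.21 and Txnrd1 at 0.14. Hmox1 was at -0.045 with normexp and at -0.013 on the 5 complete arrays, and ran from -0.013 to 0.26 with single arrays left out, called at the upper end (adjusted p = 0.0277). Sod1 was at -0.12 with the slide row blocked, -0.17 without WT replicate 1 and -0.023 without IG27 replicate 1. The cause of these changes was not tested. With the replicate number as a block, 41 members and 10309 genes were called, and Txn1 was not (adjusted p = 0.0707); same-numbered arrays correlated by 0.01, 0.04 and 0.08, so the numbers are not shown to pair the samples.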
